A study of Homo sapiens with 60 samples.

Results

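GDF15 (growth differentiation factor 15, ENSG00000130513) is 1 of the 60675 genes of the deposited count table, and its level was followed in SW1783 cells over a vehicle and 24 combinations of plant extract and dose. It was chosen by its measured rise in these same libraries, since earlier results had shown it among the genes most raised by some of the extracts. Its own levels and fold changes are therefore given as a description with no test, and tests are given for other genes only.

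GDF15 is a divergent member of the TGF-beta superfamily. Cells make it as a precursor that furin-like convertases cut, and release the mature dimer. It acts through GFRAL, a receptor of the hindbrain that signals with the kinase RET and lowers food intake. Most tissues hold little of its mRNA at rest. In stressed cells its gene is known to be switched on by ATF4 and CHOP (the product of DDIT3) in the integrated stress response, in which phosphorylation of eIF2-alpha slows protein synthesis, and also by EGR1 and the lysosomal regulators TFEB and TFE3.

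SW1783 is a human astrocytoma line. Its cells were exposed for 24 h in Leibovitz's L-15 medium to ethanol extracts of 6 herbs or 2 multi-herb formulas, each at a low, a medium and a high dose, or to DMSO vehicle (0.1% per the sample labels, more per the series text). Coptidis Rhizoma was given at 0.56, 2.8 and 14 µg/mL and Bupleuri Radix at 8.4, 42 and 210 µg/mL. Both formulas (Banhasasim-tang, Yijung-tang) and the other herbs were given at 20, 100 and 500 µg/mL. Those herbs were Aconiti Lateralis Radix Preparata, Zizyphi Fructus, Cimicifugae Rhizoma and Citri Unshius Pericarpium. Per the labels, the high dose was set from a viability assay where viability fell by a fixed share below 500 µg/mL, so the doses compared between extracts are not equal. Coptidis and Zizyphi libraries share one set number, Citri and Cimicifugae another, Bupleuri and Aconiti the next and the formulas the last, and the vehicle carries none of them. Set and treatment cannot be told apart against the vehicle, while the doses of 1 extract share a set. EGR1 is an example of a gene that differed from the vehicle at every low dose of the herbs, with 32.7 to 43.1 CPM in the low-dose groups of the 6 herbs against 18.3 ± 1.42 CPM in vehicle (SD, n = 3).

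Of 60 libraries, 2 that stood apart from their replicates were left out, 1 of high-dose Aconiti and 1 of low-dose Yijung-tang. They held 17.5 and 8.89 CPM (counts scaled to the same library size, after TMM) of GDF15. The 58 kept libraries held 15996140 to 30990226 counts each, and 42 to 9907 of these were GDF15. Groups have 2 or 3 libraries, except Banhasasim-tang at each dose and low-dose Yijung-tang, which have 1. Whether replicates came from separate cultures is not in the labels; the p-values therefore cover the spread between these libraries, which may be technical. In RNA from many cells, more RNA per cell and more cells with the RNA cannot be told apart. Of the 7 astrocyte markers, GJA1 and SLC1A3 were at 239 and 33.4 CPM in vehicle, while GFAP, AQP4 and ALDH1L1 were at 0.0412, 0.0157 and 0.0363 CPM, near 0, and S100B at 0.19 CPM.

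On GRCh38, GDF15 spans positions 18374731 to 18389176 of the plus strand of chromosome 19 (GENCODE v29). Its transcript GDF15-201 has 2 exons between 18386158 and 18389176, 1200 exonic bases of which 924 are coding. The microRNA gene MIR3189 lies in the intron and had a count of 0 in every library. The promoter is shown because several of the factors named above bind short motifs near the start of their targets. The 300 bases of RefSeq's promoter window (GRCh38.p14, chr19:18385908-18386207, plus strand, 250 bases before the start and 50 after it) are given with the GC boxes in capitals.
GDF15 promoter: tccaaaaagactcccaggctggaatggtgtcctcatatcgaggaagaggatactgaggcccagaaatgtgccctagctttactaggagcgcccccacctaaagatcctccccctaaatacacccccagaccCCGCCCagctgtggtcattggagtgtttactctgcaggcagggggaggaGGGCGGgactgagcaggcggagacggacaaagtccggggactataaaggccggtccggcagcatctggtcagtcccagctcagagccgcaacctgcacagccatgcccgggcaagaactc
A search of both strands for 9 motifs found the GC box GGGCGG at 2 places, at -70 to -65 on the plus strand and at -119 to -114 on the minus strand, counted from the start. The GC box is a common motif, present in 44.954% of the 35116 RefSeq promoter windows. The C/EBP-ATF composite TGATGNAAN (3.611% of windows), the CRE TGACGTCA (1.848%), the CRE core TGACG (24.553%), the AP-1 motif TGANTCA (7.709%), the E-box CACGTG (7.256%), the EGR motif GCGTGGGCG (0.795%), the antioxidant element TGACNNNGC (13.347%) and the heat shock element TTCNNGAA (7.737%) had no match. These letters are absent from this window only. The TGACG of the CRE core also lies inside the full CRE and can overlap the antioxidant element.

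Coptidis gave the highest GDF15 of all groups, at a dose of 14 µg/mL. GDF15 was at 3.99, 4.43 and 5.07 CPM in the 3 vehicle libraries, at 3.71 and 4.36 CPM in the low-dose, 33.5 and 34.1 CPM in the medium-dose and 500.4 and 501.9 CPM in the high-dose libraries. The low dose overlapped the vehicle, and the medium and high doses lay far above it with no overlap. Each 5-fold step in dose multiplied the group mean by 8.37 (low to medium) and by 14.8 (medium to high). The fitted log2 fold change against the vehicle was -0.15 ± 0.12 at the low, 2.92 ± 0.08 at the medium and 6.82 ± 0.07 at the high dose (estimate ± SE).

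Banhasasim-tang, a formula that classically holds Coptis rhizome among other herbs, followed with 1 library a dose and hence no replicate check. GDF15 was at 6.45 CPM at the low, 38.9 CPM at the medium and 274.3 CPM at the high dose, from counts of 164, 1084 and 7615. The exact Poisson 95% intervals, 5.5 to 7.52, 36.6 to 41.3 and 268 to 281 CPM, cover counting error only. All of these lay above the highest vehicle library. The step from medium to high was 7.05-fold and that from low to medium 6.03-fold.

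Bupleuri kept GDF15 near the vehicle until the highest dose. Its low-dose libraries held 4.49, 4.40 and 5.27 CPM, its medium-dose libraries 6.68, 6.61 and 5.71 CPM and its high-dose libraries 74.3, 72.9 and 73.6 CPM. The low dose overlapped the vehicle, the medium dose lay just above it and the high dose was 16.4 times the vehicle mean. The medium-to-high step was 11.6-fold and the low-to-medium step 1.34-fold. Log2 fold changes against the vehicle were 0.07 ± 0.11, 0.48 ± 0.10 and 4.03 ± 0.07 from low to high dose.

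Yijung-tang had 4.27 CPM in its single low-dose library (exact Poisson 95% interval 3.52 to 5.13), 5.31 and 6.03 CPM at the medium and 25.4 and 22.8 CPM at the high dose. The high dose was thus 5.36 times the vehicle mean, with a log2 fold change of 2.41 ± 0.09. High-dose Aconiti held 11.1 and 10.6 CPM, 2.41 times the vehicle mean (log2 fold change 1.26 ± 0.10), and its lower doses overlapped the vehicle at 4.00 to 4.93 CPM. With the divergent library of that group kept, the log2 fold change was 1.52. High-dose Cimicifugae held 6.66, 7.42 and 6.81 CPM, all above the vehicle, with a log2 fold change of 0.62 ± 0.10.

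Citri overlapped the vehicle in GDF15 at every dose. It held 3.90, 5.07 and 4.97 CPM at the high dose, a log2 fold change of 0.04 ± 0.11, and 3.67 to 5.10 CPM at the lower doses. Zizyphi was the only extract with a high dose below the vehicle: its libraries held 3.97 and 3.85 CPM at the low, 4.11 and 3.69 CPM at the medium and 2.18 and 1.84 CPM at the high dose. Those last values come from counts of 51 and 42, the fewest of all kept libraries, and give a log2 fold change of -1.16 ± 0.15.

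**Figure D1:**
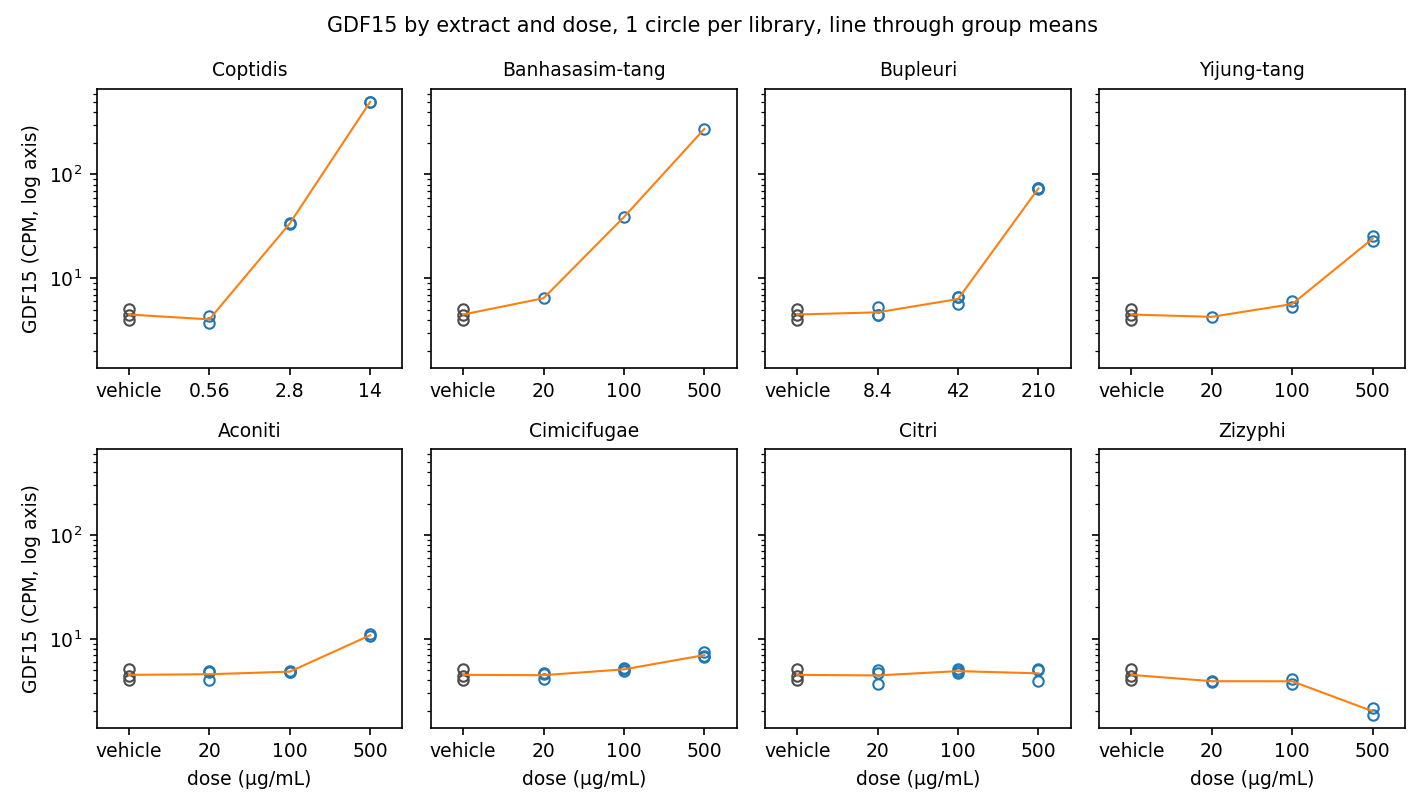
GDF15 in CPM (log axis) by dose in µg/mL, with a panel per extract or formula; each circle is a library and the line joins group means, with the vehicle at the left of each panel. Coptidis and Banhasasim-tang climb at both dose steps, to 501.1 and 274.3 CPM, Bupleuri climbs mainly at the last step, to 73.6 CPM, and Zizyphi drops to 2.01 CPM at its highest dose.

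Compared within its own set, each high dose gave GDF15 log2 fold changes close to those above. They were 6.97 ± 0.08 for Coptidis, 3.96 ± 0.07 for Bupleuri, 1.24 ± 0.09 for Aconiti, 0.64 ± 0.10 for Cimicifugae, 0.06 ± 0.10 for Citri and -0.96 ± 0.16 for Zizyphi against the low dose, and 2.09 ± 0.09 for high against medium Yijung-tang. The low-dose groups of the 6 herbs and Yijung-tang stood at 0.869 to 1.05 times the vehicle in GDF15, and low-dose Banhasasim-tang at 1.44 times.

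Ordered by mean, the groups ran from high-dose Coptidis (501.1 ± 1.11 CPM, SD, n = 2) over high-dose Banhasasim-tang, high-dose Bupleuri (73.6 ± 0.67 CPM, n = 3), medium-dose Banhasasim-tang, medium-dose Coptidis (33.8 ± 0.39 CPM, n = 2) and high-dose Yijung-tang (24.1 ± 1.86 CPM, n = 2) to high-dose Aconiti (10.8 ± 0.34 CPM, n = 2). Down to that point and to high-dose Cimicifugae (6.96 ± 0.40 CPM, n = 3) after it, the libraries of neighbouring groups did not overlap. Further down, neighbours mostly overlapped, and high-dose Zizyphi (2.01 ± 0.24 CPM, n = 2) stood apart at the bottom, against 4.50 ± 0.55 CPM in vehicle (n = 3). The group means spanned 249-fold. Of 24 treated groups, 11 had all libraries above every vehicle library, 2 had all below (low-dose and high-dose Zizyphi) and 11 overlapped.

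Among the 17680 genes tested, GDF15 ranked 8 from the top by log2 fold change in high-dose Coptidis, 47 in medium-dose Coptidis, 50 in high-dose Bupleuri and 54 in high-dose Yijung-tang. It ranked 246 in high-dose Aconiti, 1283 in high-dose Cimicifugae and 7684 in high-dose Citri, and 182 from the bottom in high-dose Zizyphi. Levels per transcript length (TPM over annotated exonic length) carry no TMM scaling, unlike the CPM, so TPM of different groups compare less well. Without that scaling, high-dose Coptidis held 422.9 CPM of GDF15, against 501.1 CPM with it. In TPM, GDF15 was at 715 ± 6.62 in high-dose Coptidis (SD, n = 2) and at 8.41 ± 0.96 in vehicle (n = 3). Among 19693 protein-coding genes this was rank 123 in high-dose Coptidis, 226 in high-dose Banhasasim-tang, 1082 in high-dose Bupleuri and 10863 in high-dose Zizyphi, against 9378 in vehicle.

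Within its own family, GDF15 became the most abundant ligand in high-dose Coptidis and high-dose Banhasasim-tang. In TPM, GDF15 was at 715 and TGFB1 at 362 in high-dose Coptidis, and GDF15 at 387 and TGFB1 at 334 in the high-dose Banhasasim-tang library. GDF15 came second to TGFB1 in high-dose Bupleuri (128 against 404 TPM) and in high-dose Yijung-tang (42.3 against 534 TPM). In vehicle, TGFB1 (504 ± 42.9 TPM, n = 3) and INHBA, which encodes the activin A subunit (37.9 TPM), led, and GDF15 was the eighth of 30 family members with a count. Among 18 secreted stress factors, GDF15 was first in high-dose Coptidis, just ahead of the stanniocalcin STC2 (690 TPM), and at rank 12 in vehicle.

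**Figure D2:**
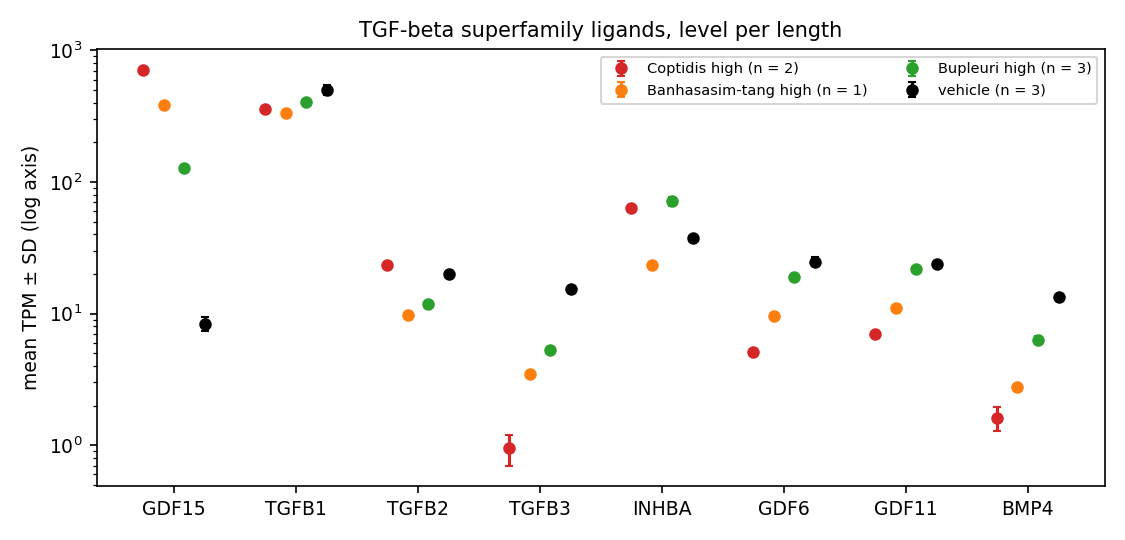
Mean level per length (TPM, log axis; error bars are the SD where a group has more than 1 library) of TGF-beta superfamily ligands in 3 high-dose groups and in vehicle. GDF15 stands highest in high-dose Coptidis at 715 TPM, against 8.41 TPM in vehicle, while TGFB1 stays between 334 and 504 TPM in the 4 groups.

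Other family members moved in both directions in the fit across all genes (edgeR's quasi-likelihood test, Benjamini-Hochberg adjustment, called at an adjusted p under 0.05). In high-dose Coptidis against vehicle, 66.6% of all genes tested were called, 34.0% higher and 32.6% lower. Of the other 32 ligands, 16 passed the filter on low counts, and 6 of these rose and 7 fell in high-dose Coptidis, with a median log2 fold change of -0.48 beside -0.017 over all genes. INHBA rose by 1.15 ± 0.06 on the log2 scale to 177 ± 4.94 CPM, against 80.5 ± 1.75 CPM in vehicle (adjusted p = 2.43e-20). TGFB3 fell to 1.57 ± 0.43 CPM, against 19.4 ± 1.19 CPM in vehicle (log2 fold change -3.62 ± 0.12, adjusted p = 5.66e-28), and BMP4, a bone morphogenetic protein, fell by 2.66 on the log2 scale (adjusted p = 7.11e-18). TGFB1 was not called (log2 fold change -0.07 ± 0.09). INHBE, an activin subunit gene of the liver that ATF4 also induces, rose by 1.59 ± 0.31, though only to 1.64 CPM.

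In high-dose Bupleuri against vehicle, 39.6% of all genes were called, 20.2% higher and 19.4% lower. There 4 of the 16 ligands rose and 6 fell, with a median log2 fold change of -0.12; with both divergent libraries kept, the falls of TGFB1, TGFB2 and GDF6 were not called (adjusted p = 0.373, 0.104 and 0.113). INHBA rose by 1.02 ± 0.06 (adjusted p = 4.2e-19), while TGFB3 fell by 1.43 and BMP4 by 0.97 on the log2 scale. BMP2 was higher in both, by 1.64 ± 0.22 in high-dose Bupleuri and by 0.93 ± 0.27 in high-dose Coptidis, but in high-dose Coptidis it stood at 2.01 ± 0.49 CPM and was not called without Coptidis replicate 3 (log2 fold change 0.66).

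Of the 6 convertases, 5 were tested. In high-dose Coptidis 0 rose and 4 fell, beside 32.6% of all genes called lower. In high-dose Bupleuri 0 rose and 1 fell, beside 19.4% called lower. FURIN, which encodes the protease that cuts the GDF15 precursor, was at 111 ± 7.85 CPM in high-dose Coptidis against 125 ± 2.83 CPM in vehicle, a log2 fold change of -0.16 ± 0.05 that was no longer called without Coptidis replicate 2 (adjusted p = 0.18) or with both divergent libraries kept (adjusted p = 0.398). PCSK7 fell by 0.44 in high-dose Coptidis and by 0.25 in high-dose Bupleuri on the log2 scale; the Bupleuri call was lost with both divergent libraries kept (adjusted p = 0.0691). The receptor gene GFRAL was near 0 in every group, with a highest group mean of 0.0117 CPM, and so was RET at 0.181 CPM. Of the relatives tested, GFRA1 fell in high-dose Bupleuri (log2 fold change -0.91 ± 0.17), GFRA2 fell in high-dose Coptidis (-1.90 ± 0.32) and NCAM1 rose in high-dose Bupleuri (0.24 ± 0.05).

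Of the 13 transcription factors listed as regulators of GDF15, 11 rose and 2 fell in high-dose Coptidis (median log2 fold change 0.97). In high-dose Bupleuri, 5 rose and 3 fell (median 0.09). Over all genes, 34.0% and 20.2% were called higher in these comparisons, and 32.6% and 19.4% lower. ATF4, the central factor of the integrated stress response, was at 509.5 and 528.4 CPM in high-dose Coptidis and at 167, 164.1 and 160.2 CPM in high-dose Bupleuri, against 103.8, 106.1 and 100.2 CPM in vehicle. All libraries of both treated groups lay above the vehicle, and the log2 fold changes were 2.34 ± 0.04 (adjusted p = 3.04e-39) and 0.66 ± 0.04 (adjusted p = 2.52e-19). DDIT3, the gene of CHOP, was at 649.2 and 630.8 CPM in high-dose Coptidis and at 54.9, 55.2 and 53.1 CPM in high-dose Bupleuri, against 24.5, 25.5 and 25.5 CPM in vehicle. Its log2 fold changes were 4.68 ± 0.07 and 1.11 ± 0.07 (adjusted p = 2.16e-41 and 1.98e-17). ATF3, a repressor and activator induced downstream of ATF4, rose by 4.89 ± 0.15 in high-dose Coptidis and was not called in high-dose Bupleuri (0.32 ± 0.19, adjusted p = 0.183).

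Other regulators of the list went different ways. EGR1, an immediate-early factor, fell in high-dose Coptidis to 4.43 ± 1.34 CPM, against 32.98 ± 0.06 CPM at the low dose (log2 fold change -2.89 ± 0.19, adjusted p = 5.63e-18). KLF4, a zinc finger factor, rose by 2.80 ± 0.09 in high-dose Coptidis and by 0.47 ± 0.09 in high-dose Bupleuri. MITF, a relative of TFEB, fell in both (by 0.75 and by 0.58 on the log2 scale). TFEB itself was called higher in high-dose Coptidis and lower in high-dose Bupleuri (log2 fold changes 0.28 ± 0.08 and -0.47 ± 0.07). Neither change was called with both divergent libraries kept (adjusted p = 0.238 and 0.0592). Its Coptidis call was also lost without Coptidis replicate 2 (adjusted p = 0.134).

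The ATF4 list of the integrated stress response holds 24 genes for amino acid synthesis, amino acid transport and stress signalling. It rose almost as a whole in high-dose Coptidis, where 23 rose and 1 fell with a median log2 fold change of 2.18. Over all genes, 34.0% were called higher and 32.6% lower there. TRIB3, a pseudokinase that curbs ATF4 and CHOP, was at 432.6 and 442.6 CPM in high-dose Coptidis, against 18.7, 19.1 and 19.7 CPM in vehicle (log2 fold change 4.53 ± 0.06, adjusted p = 2.34e-44). PPP1R15A, whose product GADD34 directs removal of the phosphate from eIF2-alpha, rose by 3.73 ± 0.05, ASNS, asparagine synthetase, by 3.00 ± 0.04, and NUPR1, a small stress protein of chromatin, by 4.18 ± 0.09. ATF5 was the member that fell (log2 fold change -0.45 ± 0.09). In high-dose Bupleuri, 16 rose and 3 fell, with a median of 0.41, beside 20.2% of all genes called higher and 19.4% lower. PPP1R15A and NUPR1 rose most among those named, by 1.67 ± 0.04 and 1.53 ± 0.10, followed by TRIB3 at 1.04 ± 0.06, and ASNS rose by 0.38 ± 0.04. The members that fell were DDIT4, VLDLR and MTHFD2, the mitochondrial folate enzyme (log2 fold changes -0.83 ± 0.06, -0.25 ± 0.05 and -0.19 ± 0.05); with both divergent libraries kept, VLDLR and MTHFD2 were not called (adjusted p = 0.314 and 0.509).

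Chaperones of the endoplasmic reticulum moved in opposite directions in the herbs with the most GDF15. All 14 of the ER chaperone list rose in high-dose Coptidis (median log2 fold change 1.11), whereas 1 rose and 11 fell in high-dose Bupleuri (median -0.25). Over all genes, 34.0% were called higher and 32.6% lower in high-dose Coptidis. In high-dose Bupleuri these shares were 20.2% and 19.4%. HSPA5, which encodes the chaperone BiP, was at 19080 and 18690 CPM in high-dose Coptidis and at 2658, 2580 and 2696 CPM in high-dose Bupleuri, against 3736, 3673 and 3694 CPM in vehicle. The Coptidis libraries were all above and the Bupleuri libraries all below the vehicle, with log2 fold changes of 2.36 ± 0.03 (adjusted p = 2.12e-43) and -0.49 ± 0.03 (adjusted p = 5.78e-19). HERPUD1, a component of ER-associated degradation, rose by 3.08 ± 0.05 in high-dose Coptidis and fell by 0.26 in high-dose Bupleuri. With both divergent libraries kept, 2 of the 14 fell in high-dose Bupleuri, and HYOU1, HSP90B1 and DNAJB9 were among those no longer called (adjusted p = 0.135, 0.504 and 0.588). The difference between the extracts was not tested.

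The lysosome list, by contrast, rose in both. All 18 rose in high-dose Bupleuri (median log2 fold change 0.78), and 15 rose and 2 fell in high-dose Coptidis (median 0.81). Over all genes, 20.2% were called higher and 19.4% lower in high-dose Bupleuri. In high-dose Coptidis these shares were 34.0% and 32.6%. SQSTM1, the autophagy receptor p62, was at 1943, 2002 and 1957 CPM in high-dose Bupleuri and at 1390 and 1455 CPM in high-dose Coptidis, against 488.6, 505.7 and 535.6 CPM in vehicle. The Bupleuri libraries were the highest of these, and the log2 fold changes were 1.94 ± 0.04 (adjusted p = 2.41e-37) and 1.49 ± 0.04 (adjusted p = 6.54e-33). GPNMB, a glycoprotein of lysosomes and melanosomes, rose by 2.05 ± 0.05 in high-dose Bupleuri and by 1.52 ± 0.06 in high-dose Coptidis. RRAGD, a GTPase that ties lysosomes to mTORC1, rose by 4.13 ± 0.24 and by 5.15 ± 0.24, to 5.87 and 11.7 CPM against 0.33 CPM in vehicle.

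The counts of the other lists stand beside 34.0% of all genes called higher and 32.6% called lower in high-dose Coptidis. In high-dose Bupleuri these shares were 20.2% and 19.4%. Of 4 eIF2-alpha kinases, 2 rose and 1 fell in high-dose Coptidis, and 0 rose and 2 fell in high-dose Bupleuri. With both divergent libraries kept, the calls of EIF2AK2 and EIF2AK3 in high-dose Coptidis (adjusted p = 0.321 and 0.292) and of EIF2AK3 and EIF2AK4 in high-dose Bupleuri (0.641 and 0.401) were lost. Of 16 NRF2 antioxidant genes, 10 rose and 2 fell in high-dose Coptidis and 11 rose and 0 fell in high-dose Bupleuri. HMOX1, heme oxygenase 1, rose in both (log2 fold changes 1.56 ± 0.06 and 2.21 ± 0.05). Of 12 mitochondrial chaperones and proteases, 7 rose and 2 fell in high-dose Coptidis, and 4 rose and 2 fell in high-dose Bupleuri. LONP1, the matrix protease, rose in both (1.27 ± 0.05 and 0.56 ± 0.04).

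Of 12 immediate-early genes, 5 rose and 5 fell in high-dose Coptidis, and 8 rose and 1 fell in high-dose Bupleuri. The shares over all genes were again 34.0% higher and 32.6% lower in Coptidis, and 20.2% and 19.4% in Bupleuri. Of 12 TGF-beta superfamily receptors tested, 4 rose and 5 fell in high-dose Coptidis, and 3 rose and 5 fell in high-dose Bupleuri. Of 15 other secreted stress factors tested, 9 rose and 5 fell in high-dose Coptidis (median log2 fold change 1.13), and 9 rose and 2 fell in high-dose Bupleuri (median 0.77). IL6, an inflammatory cytokine, rose to 54.6 ± 0.58 CPM in high-dose Coptidis and 7.26 ± 0.48 CPM in high-dose Bupleuri, against 3.94 ± 0.66 CPM in vehicle (adjusted p = 5.63e-28 and 3.99e-06). ADM2, a peptide hormone of the calcitonin family, rose by 4.06 ± 0.15 and by 0.82 ± 0.18. ANGPTL4, an inhibitor of lipoprotein lipase, fell by 2.25 in high-dose Coptidis and rose by 2.24 ± 0.08 in high-dose Bupleuri. FGF21, another stress hormone induced by ATF4, stayed below the filter with at most 0.108 CPM in any group.

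The other extracts share the vehicle libraries with these comparisons, so their values are given side by side. In medium-dose Coptidis, where 25.9% of all genes were called (13.6% higher, 12.3% lower), 23 of the 24 ATF4 list genes rose and 0 fell (median log2 fold change 1.20), and 10 ER chaperone genes and 11 lysosome genes rose. With both divergent libraries kept, 4 ER chaperone genes and 4 lysosome genes rose. In high-dose Yijung-tang (30.8% called, 14.1% higher, 16.7% lower), 20 ATF4 list genes rose and 0 fell (median 0.83), as did 9 ER chaperone genes and 12 lysosome genes, of which 5 and 5 were called with both divergent libraries kept. In high-dose Aconiti (27.6% called, 12.7% higher, 15.0% lower), 19 ATF4 list genes rose and 0 fell (median 0.31), while 1 ER chaperone gene rose and 4 fell.

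In high-dose Cimicifugae (35.7% called, 16.5% higher, 19.2% lower), 18 ATF4 list genes rose and 1 fell, and 8 ER chaperone genes rose and 2 fell, but with both divergent libraries kept 6 and 1 rose. High-dose Citri (31.5% called, 14.3% higher, 17.1% lower) had 5 ATF4 list genes up and 4 down, 9 without Citri replicate 1 and 2 with both divergent libraries kept, and 9 ER chaperone genes that fell, 1 with both divergent libraries kept. In high-dose Zizyphi (21.6% called, 9.64% higher, 12.0% lower), 1 ATF4 list gene rose and 7 fell, 12 of 14 ER chaperone genes and 12 of 18 lysosome genes fell, and 0, 2 and 2 of these fell with both divergent libraries kept. SQSTM1 was at 367.3 and 348.9 CPM in high-dose Zizyphi, against 498 ± 11 CPM at the low dose (log2 fold change -0.47 ± 0.04, adjusted p = 8.44e-11; 0.22 with both divergent libraries kept).

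**Figure D3:**
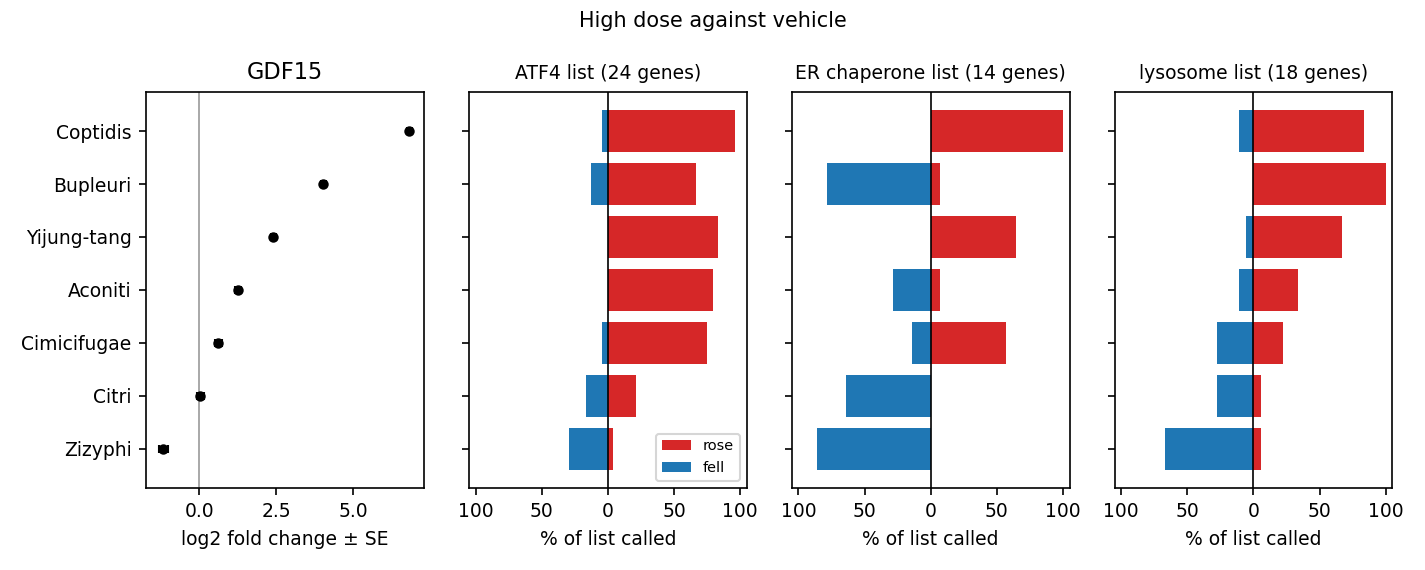
Left, GDF15 log2 fold change ± SE of each high dose against vehicle; right, the share of 3 gene lists called higher (red, to the right) or lower (blue, to the left) in the same comparisons. The share of the ATF4 list that rose is above the share that fell from Coptidis down to Cimicifugae. In Citri, 5 of 24 rose and 4 fell, beside 14.3% of all genes called higher and 17.1% lower. ER chaperones fell in Bupleuri (11 of 14, beside 19.4% of all genes) and rose in Coptidis (14 of 14, beside 34.0%). All lists fell more than they rose in Zizyphi, where 9.64% of all genes were called higher and 12.0% lower.

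Within a set, high against low dose gave similar list counts for Coptidis and Bupleuri. In Coptidis (65.6% of genes called, 33.2% higher, 32.4% lower), 23 ATF4 list genes, 14 ER chaperone genes and 15 lysosome genes rose. In Bupleuri (39.2% called, 20.6% higher, 18.6% lower), 15 ATF4 list genes rose and 1 fell, 2 ER chaperone genes rose and 9 fell, and all 18 lysosome genes rose. In Yijung-tang, high against medium (9.16% called, 4.11% higher, 5.05% lower), 19 ATF4, 10 ER chaperone and 10 lysosome genes rose. In Aconiti (9.53% called, 4.28% higher, 5.25% lower), 17 ATF4 list genes rose and 0 fell, 3 ER chaperone genes rose and 3 fell, and 2 lysosome genes rose. In Cimicifugae (10.7% called, 4.88% higher, 5.81% lower) 11 ATF4 and 11 ER chaperone genes rose. In Citri (13.8% called, 6.44% higher, 7.34% lower) 5 ATF4 list genes rose and 2 fell, and 6 ER chaperone genes fell. In Zizyphi (7.40% called, 3.12% higher, 4.28% lower) 1 ATF4 list gene rose and 5 fell, and 6 ER chaperone genes fell. With both divergent libraries kept, the genes called in all dropped to 73 from 1619 in Yijung-tang, to 109 from 1890 in Cimicifugae, to 188 from 2435 in Citri and to 27 from 1308 in Zizyphi. Calls lost then included DDIT3 and HSPA5 in Yijung-tang (adjusted p = 0.108 and 0.19), in Cimicifugae (0.667 and 0.326) and in Citri (0.534 and 0.3).

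HMOX1, a target of NRF2, was at 493 ± 12 CPM in high-dose Aconiti and 482 ± 18.7 CPM in high-dose Cimicifugae, against 57.8 ± 1.67 CPM in vehicle (log2 fold changes 3.08 ± 0.06 and 3.05 ± 0.05, adjusted p = 1.78e-36 and 3.39e-37), the highest of any high dose. Coptidis reached 169 ± 2.53 CPM of HMOX1 at its high dose. GDF15 stood at 2.41 and 1.55 times the vehicle in high-dose Aconiti and Cimicifugae.

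The order of groups by GDF15 was not the order by DDIT3. High-dose Bupleuri held 73.6 CPM of GDF15 with 54.4 CPM of DDIT3, 164 CPM of ATF4 and 39.5 CPM of TRIB3. Medium-dose Coptidis held less GDF15, 33.8 CPM, with 79.7 CPM of DDIT3, 273 CPM of ATF4 and 103 CPM of TRIB3, and medium-dose Banhasasim-tang 38.9 CPM of GDF15 with 75.7, 253 and 102 CPM of the same genes. HSPA5 stood at 2645, 5837 and 6146 CPM in these 3 groups, and SQSTM1 at 1967, 840 and 849 CPM. Differences between these groups were not tested. The high-dose Banhasasim-tang library held 330 CPM of DDIT3, 304 CPM of TRIB3, 15430 CPM of HSPA5 and 1525 CPM of SQSTM1 beside its 274.3 CPM of GDF15. CHAC1, a glutathione-degrading enzyme of the ATF4 list, did not follow GDF15 between Coptidis doses, with 34.4 ± 0.81 CPM at the medium and 28.9 ± 2.49 CPM at the high dose.

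Likeness to GDF15 was measured as Pearson's r of group mean log2 CPM over the 25 groups, among the 4074 genes that averaged 1 CPM or more and spanned 1 log2 unit or more. The groups share sets, vehicle and library scaling, and 6 of them above 20 CPM of GDF15 carry most of its range, so r is a description. Among the 12 most alike were TRIM25, a ubiquitin ligase of antiviral signalling (0.985), LONP1 (0.982), SLC3A2, the heavy chain of amino acid transporters (0.976), NUPR1 (0.975), HKDC1, a hexokinase relative (0.974), CLIP4 (0.973), LURAP1L (0.971), SIK1B (0.97), KCP (0.969), SIK1, a salt-inducible kinase (0.969), and RND3 (0.968). SIK1 and SIK1B are near-identical copies whose reads cannot be assigned with certainty. LONP1, SLC3A2 and NUPR1 are members of the lists above.

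The alike genes differ in range. TRIM25 was at 161 CPM in high-dose Coptidis, 126 CPM in high-dose Bupleuri and 72.8 CPM in high-dose Zizyphi, against 77.2 CPM in vehicle, a range of 1.14 log2 units over all groups. SLC3A2 was at 810.8 and 782.1 CPM in high-dose Coptidis and at 252.4, 264.9 and 277.1 CPM in high-dose Bupleuri, against 147.8, 144.8 and 152.1 CPM in vehicle. HKDC1 was at 86.6, 10.2 and 1.77 CPM in high-dose Coptidis, Bupleuri and Zizyphi against 2.19 CPM in vehicle, and NUPR1 at 134, 21.5 and 5.62 CPM against 7.43 CPM. Genes with the lowest r were FBXO5 (-0.99), ATAD2 (-0.979), CENPU (-0.974), PRC1 (-0.97), GABRQ (-0.968) and ARHGAP11A (-0.966). FBXO5, an inhibitor of the anaphase-promoting complex, was at 13.6, 21.2 and 40.7 CPM in high-dose Coptidis, Bupleuri and Zizyphi against 35.1 CPM in vehicle, and PRC1, a protein of the mitotic spindle midzone, at 68.0, 89.9 and 147 CPM against 136 CPM.

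Without high-dose Coptidis and high-dose Bupleuri, SLC3A2 (0.992), TRIB3 (0.982), LURAP1L (0.98), KLF4 (0.98), IRS2 (0.98) and LONP1 (0.978) led over 23 groups, and 4 of the 12 genes above were among that ranking's 12. By Spearman's rank correlation, 2 of the 12 were, SLC3A2 (0.94) and LONP1 (0.91). Without the 6 groups above 20 CPM of GDF15, 0 of the 12 were, over 19 groups, where 406 genes passed the same limits; the 12 had r of 0.513 to 0.921 there. By list, the median r was 0.899 for the ATF4 list, 0.885 for the lysosome list and 0.818 for ER chaperones. It was 0.712 for mitochondrial chaperones and proteases, 0.698 for the regulators, 0.689 for secreted stress factors and 0.636 for NRF2 genes. Lower medians were 0.542 for eIF2-alpha kinases, 0.312 for p53 targets, 0.224 for immediate-early genes and 0.149 for TGF-beta superfamily receptors. The relatives of the receptor gene (-0.361), the other ligands (-0.547) and the convertases (-0.64) had negative medians. Over all genes tested the median was -0.039. DDIT3 had an r of 0.959, ATF4 0.951, SQSTM1 0.924, HSPA5 0.837, HMOX1 0.493, TFEB -0.25 and EGR1 -0.663. By rank correlation, HMOX1 was at 0.785, HSPA5 at 0.525 and EGR1 at -0.302, and without the 6 groups above 20 CPM of GDF15, HSPA5 was at 0.447 and EGR1 at -0.047. Of the promoters of the 12 alike genes, 9 are in the RefSeq set. The GC box was found in 5 of the 9 (44.954% of all windows) and the CRE core in 4 (24.553%). The E-box (7.256%) and the antioxidant element (13.347%) were found in 2 each. The C/EBP-ATF composite (3.611%) and the AP-1 motif (7.709%) were found in that of SLC3A2 only.

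**Figure D4:**
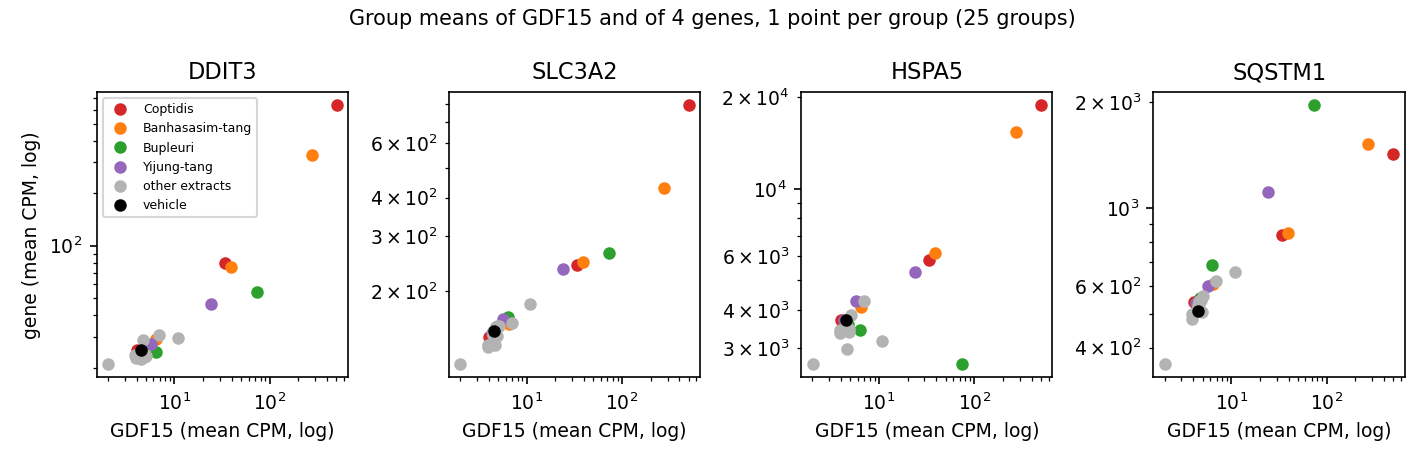
Group mean CPM of 4 genes (vertical, log axis) against group mean CPM of GDF15 (horizontal, log axis), with 1 point for each of the 25 groups, coloured by extract. DDIT3 and SLC3A2 are highest in high-dose Coptidis, SQSTM1 is highest in high-dose Bupleuri at 1967 CPM, and HSPA5 lies at 2645 CPM in high-dose Bupleuri, below the vehicle's 3701 CPM.

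Of 14 annotated genes within 100 kb of GDF15, 6 passed the filter. PGPEP1, a pyroglutamyl peptidase gene on the same strand that ends 4781 bp upstream of GDF15, rose in high-dose Coptidis (43.5 CPM) and high-dose Bupleuri (35.8 CPM), against 19.1 CPM in vehicle. Its log2 fold changes were 1.20 ± 0.07 (adjusted p = 1.01e-19) and 0.90 ± 0.06 (adjusted p = 4.37e-16), and against the low dose 1.08 ± 0.07 and 0.72 ± 0.06 (adjusted p = 2.48e-17 and 4.52e-14). JUND, an AP-1 subunit gene 93109 bp away, rose by 1.68 ± 0.15 in high-dose Coptidis against vehicle (adjusted p = 1.03e-13) and by 1.23 ± 0.15 against the low dose. In high-dose Bupleuri it was at 35.6 CPM, against 24.3 CPM in vehicle and 36.1 CPM at the low dose, so its rise against the vehicle (0.55 ± 0.14, adjusted p = 0.00153) had no counterpart within the set (-0.02 ± 0.13, adjusted p = 0.94), and that rise was not called with both divergent libraries kept (adjusted p = 0.0726).

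SSBP4, 29688 bp away, rose by 0.44 ± 0.07 in high-dose Coptidis against vehicle (adjusted p = 2.98e-07; 0.0521 with both divergent libraries kept). Within the set its change was smaller, 0.22 ± 0.07 against the low dose (adjusted p = 0.00635; 0.407 with both divergent libraries kept), and it was called higher than vehicle in the low-dose groups of all 6 herbs. LSM4, ISYNA1 and ELL were not called in high-dose Coptidis against vehicle, where 3 of the 6 rose and 0 fell, beside 34.0% of all genes called higher. Against the low dose 4 of the 6 rose, beside 33.2% of all genes called higher. ELL was among these 4 (0.46 ± 0.09, adjusted p = 9.57e-06). It was at 15.4 CPM at the high and 11.4 CPM at the low dose of Coptidis, against 15.0 CPM in vehicle. The low dose was called lower than vehicle (-0.40 ± 0.08, adjusted p = 0.00135). In high-dose Bupleuri against vehicle, 3 of the 6 rose and 1 fell, beside 20.2% of all genes called higher and 19.4% lower. The 1 that fell was LSM4 (-0.13 ± 0.05, adjusted p = 0.0434, and 0.779 with both divergent libraries kept). In high-dose Zizyphi against vehicle, 9.64% of all genes were called higher and 12.0% lower. There 0 of the 6 rose and 1, ELL, fell (log2 fold change -0.29 ± 0.08). That call was lost with both divergent libraries kept (adjusted p = 0.556) or without vehicle replicate 1. Leaving out 1 library, the change ranged from -0.43 to -0.16. Against low-dose Zizyphi, ELL was not called (-0.06 ± 0.09, adjusted p = 0.763), and it also fell in low-dose Zizyphi against vehicle (-0.23 ± 0.08, adjusted p = 0.0453). LRRC25, the nearest gene downstream at 1968 bp, had 40 counts in all libraries together.

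**Figure D5:**
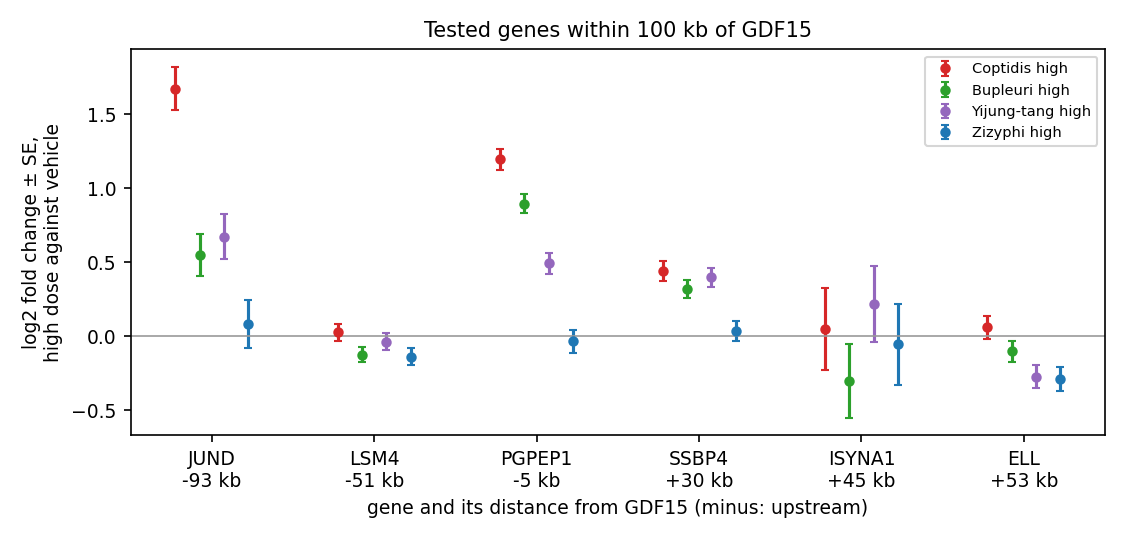
Log2 fold change ± SE of 4 high doses against vehicle for the 6 tested genes within 100 kb of GDF15, ordered along the chromosome with their distance in kb (minus: upstream). PGPEP1 and JUND rise most in high-dose Coptidis, by 1.20 and 1.68, and no gene comes near the 6.82 of GDF15.

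Some features of the libraries differed between the vehicle and the groups with high GDF15, though not in the order of GDF15, and their part in the result was not tested. The share of counts from the mitochondrial ribosomal RNA MT-RNR2 was 0.82% to 0.88% in vehicle, 1.73% and 1.85% at the low, 8.44% and 8.46% at the medium and 3.27% and 3.31% at the high dose of Coptidis, and 3.35%, 7.96% and 6.09% in the Banhasasim-tang libraries from low to high dose. It was 1.04% to 1.14% in high-dose Bupleuri. Summed over 7 microglia and leukocyte markers, high-dose Coptidis held 266 to 280 CPM and high-dose Bupleuri 251 to 276 CPM, against 146 to 153 CPM in vehicle. Most of it was CD68, a lysosomal protein. In vehicle, CD68 was at 134 CPM, PTPRC at 13.4 CPM and CSF1R at 3.53 CPM. ITGAM and CX3CR1 were near 0 there, and TYROBP and AIF1 were at 0. The sum over 6 epithelial markers was 167 to 171 CPM in high-dose Coptidis and 63.4 to 67.3 CPM in high-dose Bupleuri, against 256 to 265 CPM in vehicle. Most of the vehicle sum was KRT18 at 240 CPM, followed by KRT8 at 19.1 CPM and CLDN4 at 1.7 CPM. KRT19 was at 0.293 CPM, and EPCAM and CDH1 were near 0. The leukocyte sum was above the vehicle in every treated group, low doses included. It was at 207 to 210 CPM in high-dose Citri and at 184 to 188 CPM in low-dose Coptidis. The epithelial sum was lower in high-dose Citri, at 137 to 148 CPM, than in high-dose Coptidis. The sum over 7 neuron markers was 108 to 112 CPM in high-dose Coptidis, 92.2 CPM in high-dose Banhasasim-tang and 122 to 127 CPM in high-dose Bupleuri, against 175 CPM in vehicle.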

How the data were processed

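RNA-seq was made from SW1783 cells after 24 h with an extract or vehicle. The deposited table holds the authors' expected counts per gene for 60 libraries. Per the submitters' processing notes, FastQC 0.11.9, Trim Galore 0.6.5, STAR 2.7.3a, RSEM 1.3.3 and hg38 (GRCh38) were used; their settings, and whether counting used strand, are not given in those sources. Of the values, 8.925% were not whole (tolerance 1e-09), and all were rounded. RSEM shares reads between similar copies, so near-identical genes are uncertain. Of the 60675 IDs, 57055 matched GENCODE v29 and held 99.9678% of counts.

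The 58 kept libraries in 25 groups gave levels as CPM scaled by TMM (edgeR 4.0.16, R 4.3.3), and TPM over annotated exonic length without TMM scaling. The fit used 54 libraries of 21 groups with at least 2 libraries each, filterByExpr with a minimum count of 10 (17680 genes), quasi-likelihood tests in 27 comparisons, and Benjamini-Hochberg adjustment within each at 0.05. The procedure was tested on simulated data. GDF15, the lists and the rules were chosen with earlier results of these data known.

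Genes were named by rule: the 12 with the highest and 6 with the lowest r with GDF15, the 6 highest without high-dose Coptidis and Bupleuri, up to 3 called members of each list with the smallest p in each of these high doses, a fixed list of regulators and markers, and genes within 100 kb. Other members named (ASNS, ATF5, DDIT4, VLDLR, MTHFD2 and the like) were chosen after their values were seen. Some genes that these rules name are not reported here. Alternatives were DESeq2 1.42.0 and its size factors, no filter, both divergent libraries kept, a fit of only the groups compared, a replicate block, leaving out each library, and other measures of likeness. Library totals of 15996140 to 30990226 counts set the precision.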

Additional observations from a re-analysis of the deposited data

How the results depend on the processing

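The GDF15 log2 fold changes in 27 comparisons shifted by at most 0.01 under the DESeq2 Wald test, DESeq2 size factors and the replicate block. They shifted by at most 0.03 with no filter on low counts or a fit over only the groups compared. Over 146 values with 1 library left out, the largest shift was 0.12, and all stayed within the spread between libraries. Changes near 0 could switch sign there, as in high-dose Citri against vehicle, which ranged from -0.02 to 0.15. With both divergent libraries kept, 2 fold changes moved by more than that spread, those of high-dose Aconiti. They moved to 1.52 against vehicle and 1.49 against the low dose. Group levels moved for Coptidis high to 511.2 CPM with DESeq2 size factors. With library totals only they were 422.9 CPM for Coptidis high, 252.1 and 35.56 CPM for Banhasasim-tang high and medium and 30.53 CPM for Coptidis medium. With both divergent libraries kept they were 502.4 CPM for Coptidis high, 13.02 CPM for Aconiti high and 6.578 CPM for Yijung-tang low.

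Calls across genes depended most on leaving out the 2 divergent libraries. All groups share 1 fit and its estimate of the spread. Log2 fold changes outside the groups of these 2 libraries could keep their value while the call was lost. HSPA5 in Zizyphi and DDIT3 in Citri, high against low dose, stood at -0.37 and 0.37 with and without them. With both libraries kept, 97 calls were lost among 427 values of named genes (called and uncalled), and the cause was not tested. Genes changed against vehicle were then 277 for Zizyphi high (3819 without them), 814 for Citri high (5563), 1245 for Cimicifugae high (6319), 2477 for Bupleuri high (7004), 770 for Yijung-tang high (5449) and 632 for Coptidis medium (4584). Against the low dose they were 27 for Zizyphi (1308), 188 for Citri (2435), 109 for Cimicifugae (1890) and 2361 for Bupleuri (6926), and 73 for Yijung-tang against medium (1619). In lists, the counts also fell: in Yijung-tang high 5 ER chaperone and 5 lysosome genes rose (9 and 12), in Coptidis medium 4 and 4 (10 and 11), and in Bupleuri high 2 ER chaperone genes fell (11). In Zizyphi high 0 ATF4, 2 ER chaperone and 2 lysosome genes fell (7, 12 and 12), in Citri high 2 ATF4 genes rose and 1 ER chaperone gene fell (5 and 9), and in Cimicifugae high 6 ATF4 and 1 ER chaperone genes rose (18 and 8). The fit over only 2 groups gave 373 for Zizyphi high against low.

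Leaving out 1 library, genes changed against vehicle were 3084 to 4509 for Aconiti high (lowest without Aconiti replicate 2), 2719 to 4060 for Coptidis medium and 2207 to 3220 for Zizyphi high (lowest without Zizyphi replicate 2), and 4 to 9 ATF4 list genes rose in Citri high (9 without Citri replicate 1). Against the low dose they were 863 to 1400 for Aconiti, 1247 to 1711 for Cimicifugae and 497 to 1171 for Zizyphi, and 805 to 933 for Yijung-tang against medium. Of the 12 genes most like GDF15, 2 were shared by Spearman's rank correlation, 4 without high-dose Coptidis and Bupleuri, and 0 without the 6 groups above 20 CPM, an alternative chosen after seeing the data.

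Over 68 pairs, residuals of same-numbered libraries correlated at -0.05 to 0.073. Residuals were taken from group means, so where both groups hold the same 2 replicate numbers, both pairs give the same value. The check therefore cannot settle whether samples were paired. The replicate block gave a log2 fold change of 6.81 for GDF15 in high-dose Coptidis and moved no count of genes changed by over 1.5 times; it lost 0 calls on named genes and gained 3. Counts of 42 to 9907 reads limit GDF15 most in high-dose Zizyphi.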
